A study of Mus musculus with 16 samples.

Results

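The vomeronasal receptor gene intervals are the gene bodies named Vmn1r or Vmn2r plus a number that held at least 1 read when 4 H3K27me3 ChIP-seq libraries of mouse T cells were summed. They numbered 323 of the 20976 intervals with a read, out of 22269 in all, and comprised 203 Vmn1r and 120 Vmn2r intervals. The lowest total of a member over the 4 libraries was 30 reads, at Vmn1r20, and 2 further names of these families had no read. None of the 323 overlapped another interval.

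Trimethylation of histone H3 at lysine 27 (H3K27me3), the mark of Polycomb repression that the methyltransferase Ezh2 deposits, was measured in Th0 cells, which are CD4 T cells activated without polarising cytokines. Control cells carried floxed Ezh2 alleles (Ezh2 fl/fl) and no Cre, and Ezh2-deleted cells carried the same alleles with CD4Cre, a Cre driven from the Cd4 gene and active from the thymocyte stage. Naive CD4 cells of both genotypes were flow sorted and activated with anti-CD3 (5 ug/ml) and anti-CD28 (1 ug/ml). Th0 cultures received IL-2 (50 U), and cultures for induced regulatory T cells (iTreg) received more IL-2 (200 U per ml) with TGF-b1 (5 ng/ml). The labels give neither the age nor the sex of the mice. ChIP-seq came from 2 Th0 libraries per genotype, control 33 and 7 and Ezh2-deleted 10 and 9, which the design text calls biological replicates, harvested at day 4. RNA-seq came from 3 libraries per genotype of Th0 (day 4 in the titles) and of iTreg (day 5 in the titles, day 4 in the protocol).

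ChIP libraries held 11124172 to 15103496 counted reads and RNA libraries 21910114 to 28443427. Ezh2 RNA was 295 to 312 counts-per-million (CPM) in Th0 control and 148 to 169 in Th0 Ezh2-deleted libraries, and 166 to 251 against 48.7 to 123 in iTreg. The 10 T cell markers were all detected. They summed to 3783 to 3989 CPM in Th0 control and 2242 to 2644 in Th0 Ezh2-deleted libraries, which did not overlap. In iTreg the sums were 3395 to 4103 in control and 3096 to 4676 in Ezh2-deleted libraries. iTreg libraries 177 (control) and Ezh2KO.165 (Ezh2-deleted) stood apart: 7 myeloid genes summed to 26.2 and 11.4 CPM there, against 2.27 to 2.77 in the other 4 iTreg libraries. iTreg Ezh2KO.150 and Ezh2KO.153 stood apart as well: CD8 T cell markers summed to 138 and 132 CPM there, against 39.6 in Ezh2KO.165 and 18 to 26.7 in iTreg control, and NK cell markers to 3.18 and 2.92, against 0 to 0.647 in the other 4 iTreg libraries. Neither input nor spike-in data enter these values, so a density is a share of its library and not an absolute amount.

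Vomeronasal receptors are G protein-coupled receptors that detect pheromones and other social cues in sensory neurons of the vomeronasal organ. Vmn1r (V1R) genes have a coding sequence in a single exon and signal through Gnai2, while Vmn2r (V2R) genes have several exons, a long extracellular domain and signal through Gnao1, and both open the channel Trpc2. Each neuron expresses few of these genes. The genes lie in tandem arrays of close copies, and Polycomb marks at silent genes are best known for genes with CpG-rich starts.

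The DNA before the annotated starts of these genes holds few CpG. Sequences are the 250 bases before the RefSeq gene start, from the promoter table of GRCm38.p6, 5′ to 3′ on the strand of the gene, with each CG in capitals (none is marked where none is present). Shown first are the Vmn1r with the highest control H3K27me3 among those with an entry, Vmn1r234 (chr17:21228576-21228825, plus strand), and the one with the lowest, Vmn1r135 (chr7:21832101-21832350, plus strand), which also stands before Vmn1r163 with the same letters. Vmn1r155 (chr7:22657768-22658017, plus strand) and Vmn1r152 (chr7:22522717-22522966, plus strand) had higher H3K27me3 without Ezh2, and were chosen after their values were seen.
Vmn1r234: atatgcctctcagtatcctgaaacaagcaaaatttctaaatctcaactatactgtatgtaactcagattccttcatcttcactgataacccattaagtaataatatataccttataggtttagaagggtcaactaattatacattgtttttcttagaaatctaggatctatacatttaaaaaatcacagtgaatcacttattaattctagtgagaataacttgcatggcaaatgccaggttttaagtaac
Vmn1r135: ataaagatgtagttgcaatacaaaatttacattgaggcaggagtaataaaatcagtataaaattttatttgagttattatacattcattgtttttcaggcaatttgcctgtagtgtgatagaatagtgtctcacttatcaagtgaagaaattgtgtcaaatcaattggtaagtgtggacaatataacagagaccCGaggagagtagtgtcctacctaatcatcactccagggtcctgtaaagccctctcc
Vmn1r155: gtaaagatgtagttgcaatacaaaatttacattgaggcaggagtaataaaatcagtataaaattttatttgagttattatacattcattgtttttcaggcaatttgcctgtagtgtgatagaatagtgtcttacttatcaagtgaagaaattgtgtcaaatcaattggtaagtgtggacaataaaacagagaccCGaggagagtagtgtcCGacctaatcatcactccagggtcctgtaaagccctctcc
Vmn1r152: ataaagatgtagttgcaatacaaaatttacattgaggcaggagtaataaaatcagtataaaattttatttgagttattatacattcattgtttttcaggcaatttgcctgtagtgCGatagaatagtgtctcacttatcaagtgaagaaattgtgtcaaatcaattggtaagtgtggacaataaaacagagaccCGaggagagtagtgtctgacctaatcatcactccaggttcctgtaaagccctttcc

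The sequence of Vmn1r135 differs from that of Vmn1r155 by 4 edits in 250 bases (98.4% identity) and from that of Vmn1r152 by 6 (97.6%), whereas Vmn1r234 and Vmn1r135 share 47.2%. The Vmn2r with the highest and the lowest control density were Vmn2r117 (chr17:23479598-23479847, minus strand) and Vmn2r84 (chr10:130394242-130394491, minus strand). Vmn2r83 (chr10:79468708-79468957, plus strand), chosen after its values were seen, had the smallest p of the Vmn2r called lower in H3K27me3.
Vmn2r117: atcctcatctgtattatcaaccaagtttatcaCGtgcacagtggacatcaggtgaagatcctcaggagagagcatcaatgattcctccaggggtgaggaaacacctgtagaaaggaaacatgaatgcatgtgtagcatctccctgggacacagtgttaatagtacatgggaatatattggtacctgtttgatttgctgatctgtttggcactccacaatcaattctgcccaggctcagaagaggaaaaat
Vmn2r84: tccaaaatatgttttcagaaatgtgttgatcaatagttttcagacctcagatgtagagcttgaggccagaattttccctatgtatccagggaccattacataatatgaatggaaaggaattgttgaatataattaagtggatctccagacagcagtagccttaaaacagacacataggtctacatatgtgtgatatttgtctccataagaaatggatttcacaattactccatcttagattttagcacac
Vmn2r83: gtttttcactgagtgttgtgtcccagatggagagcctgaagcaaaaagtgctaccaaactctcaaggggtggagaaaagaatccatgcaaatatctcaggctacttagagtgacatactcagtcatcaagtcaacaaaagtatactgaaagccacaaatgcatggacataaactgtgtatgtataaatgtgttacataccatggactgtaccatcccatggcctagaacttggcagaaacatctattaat

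Of the 323 members, 293 had an entry in the promoter table, here taken as 250 bases before to 50 bases after the start. In 232 the start lay within 10 bases of the 5′ end of the interval. It lay 32491 bases away at Vmn1r4 and 125163 at Vmn2r7. These are annotated starts, and where transcription starts was not measured. The median window held 1 CG, the highest count was 6, and 25.9% of the windows held none, against 4.86% of the 15298 windows of all intervals with a read. A count of 10 or more CG was met by 0 member windows and by 60.6% of all windows. Median G+C content was 36.7% in the members and 57.3% in all. Olfactory receptor (Olfr) windows were similar, with a median of 1 CG and 35.0% G+C over 921 windows, while windows of the Hox genes, the developmental regulators best known as Polycomb targets, had a median of 13.5 CG over 18 windows. A count of CG is a description of these letters and says nothing of the proteins that bind there.

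In control Th0 cells the receptor intervals had H3K27me3 densities slightly above the middle of all intervals and far below Hox genes. Without input data, such densities cannot be told apart from ChIP background. Density here is CPM per kb of interval. The median Vmn1r density was 1.17 and 1.07 in control libraries 33 and 7 and 1.23 and 1.44 in Ezh2-deleted libraries 10 and 9. The median Vmn2r density was 1.02 and 0.944 in control and 1.08 and 1.25 in Ezh2-deleted libraries. Scaled to library totals, both families' medians were higher in both Ezh2-deleted libraries than in both control libraries, the reverse of the Hox medians. As summed reads over summed length, Vmn1r had 1.20 and 1.11 in control and 1.15 and 1.32 in Ezh2-deleted libraries, which overlap. Vmn2r had 1.11 and 1.06 against 1.13 and 1.32. On TMM library sizes, a scaling described below, the medians of the genotypes overlapped in both families.

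The 31 Hox intervals had medians of 6.50 and 8.02 in control and 1.25 and 1.76 in Ezh2-deleted libraries. Olfr intervals, the other large family of silent sensory receptors, had medians of 1.25, 1.25, 1.27 and 1.40 in the same order. Intervals without an RNA read in the 12 RNA libraries had 1.21, 1.28, 1.16 and 1.24 (n = 4710). Intervals with 1000 or more RNA reads had 0.544, 0.407, 0.895 and 0.834 (n = 9878). All intervals with a read had 0.881, 0.919, 0.987 and 0.919. As a mean over 2 libraries, the Vmn1r median was 1.12 ± 0.0697 (SD, n = 2) in control and 1.34 ± 0.154 in Ezh2-deleted cells, and the Vmn2r median was 0.982 ± 0.0531 and 1.16 ± 0.121. With 2 libraries against 2, an exact permutation test cannot go below p = 0.33, so no test of these medians is given.

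**Figure D1:**
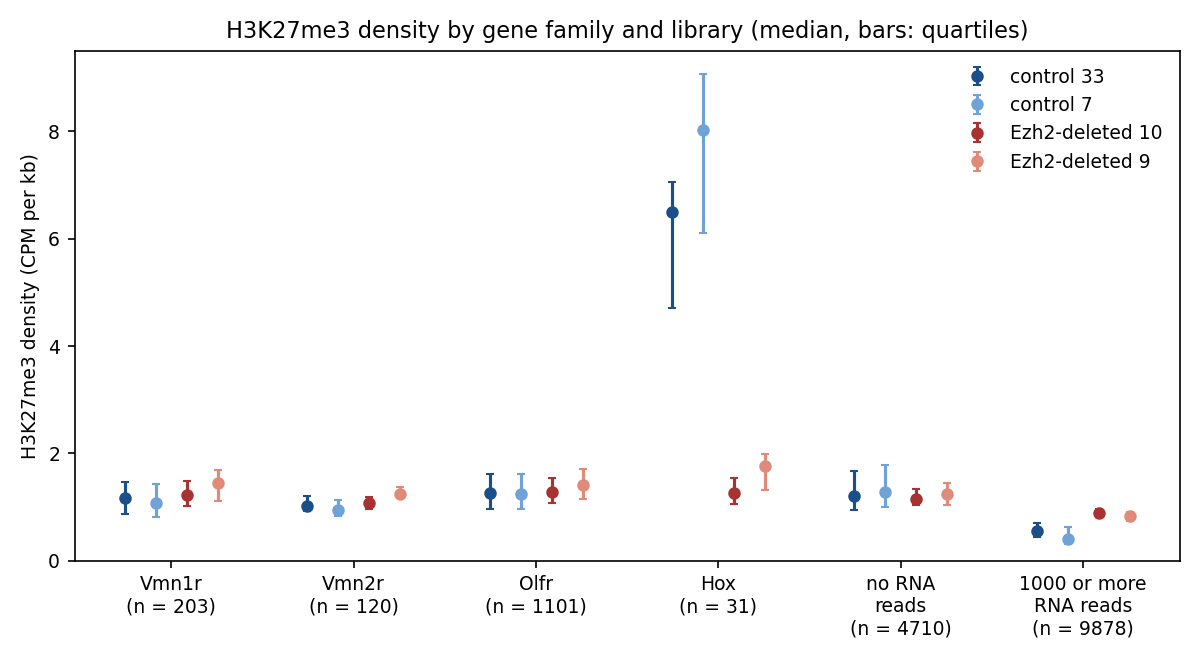
H3K27me3 density in CPM per kb (y axis) of 6 sets of intervals (x axis) in each of the 4 Th0 ChIP-seq libraries: points are medians over intervals and bars run from the lower to the upper quartile. The medians of both receptor families lie between 0.944 and 1.44 in the 4 libraries, while the Hox median falls from 6.50 and 8.02 in control to 1.25 and 1.76 in Ezh2-deleted libraries.

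By rank among all intervals with a read, the median member stood at the 58.0th percentile of mean control density, 61.2 for Vmn1r and 53.4 for Vmn2r. Only 7 members, all Vmn1r, were in the top 10% of control density, as against 27 of 31 Hox intervals. The families differ in how well a single interval is measured. Vmn1r intervals had a median length of 945 bases and medians of 13 to 19 reads per library, and Vmn2r intervals 24176 bases and 271.5 to 402 reads. Across intervals, the Spearman rank correlation between the control libraries was 0.458 over the 203 Vmn1r and 0.796 over the 120 Vmn2r, points that share both libraries. Much of the order among Vmn1r genes was therefore not repeated between libraries. The 20 Vmn1r highest in control 33 had a median of 2.16 there, 1.64 in control 7, and 1.37 and 1.58 in the Ezh2-deleted libraries.

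Few members were called between genotypes, and a member not called is not shown to be unchanged. The test was edgeR's quasi-likelihood F test on the counts of 20376 intervals, scaled to library totals, two-sided, with Benjamini-Hochberg adjustment over all of them and a threshold of 0.05. Of 317 members tested, 15 were called (4.73%), where 52.9% of all tested intervals were called. The share was 11.5% of the 1510 tested other intervals of up to 1500 bases and 23.1% of the 4430 tested intervals without an RNA read. Olfr intervals were near the members, with 6.39% of 1096 tested, a difference that was not tested. Lower without Ezh2 were 8 members, 5 Vmn1r and 3 Vmn2r, against a background of 20.6%. These falls were 2.52% of the tested members, beside 4.93% of Olfr and 9.67% of other intervals of up to 1500 bases. Higher without Ezh2 were 7 members, 5 Vmn1r and 2 Vmn2r, against a background of 32.2%. That share was 64.04% of tested intervals with 1000 or more RNA reads and 3.14% of those without an RNA read. It was 1.79% of other intervals of up to 1500 bases and 1.46% of Olfr, beside 2.21% of the tested members. The members' share of rises was thus near those of silent, short and Olfr intervals, which was not tested. The 6 members not tested were Vmn1r with low counts. The median log2 change was 0.25 over the tested members, 0.21 over Vmn1r and 0.25 over Vmn2r, beside 0.21 over all tested intervals. It was -0.01 over intervals without an RNA read, 0.04 over other intervals of up to 1500 bases and 0.11 over Olfr. Intervals with 1000 or more RNA reads had 0.83. The members' median was thus near that of all intervals and above those of silent, short and Olfr intervals, differences that were not tested.

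The size of the typical member's change depends on the scaling. With TMM, a scaling that sets the bulk of intervals to no change, the median of all intervals moved from 0.21 to -0.02 and that of the members from 0.25 to 0.02. TMM then called 16 members lower and 1 higher, 5.36% of those tested. Of all 20376 tested intervals it called 5699 lower and 4956 higher, or 52.3%. Over all intervals it moved the share of calls that were higher from 61.0% to 46.5%. The members' median exceeded that of all intervals by 0.04 on both scales. With 1 library left out the sign of this difference varied. It was 0.07 without control 33, -0.04 without control 7, 0.12 without Ezh2-deleted 10 and -0.06 without Ezh2-deleted 9. A fit without 1 library holds 1 library in a genotype, and the calls of such fits varied widely, as given in the closing section.

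Without a test, both Ezh2-deleted libraries were below both control libraries at 32 members and above both at 145. The backgrounds over all intervals with a read were 31.1% and 47.6%, and the members' shares were 9.91% and 44.9%. Upwards the share was 36.9% of Vmn1r and 58.3% of Vmn2r intervals, and 26.7% of intervals without an RNA read. The members' share was thus below the background downwards, and upwards Vmn1r lay below it and Vmn2r above it, differences that were not tested.

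**Figure D2:**
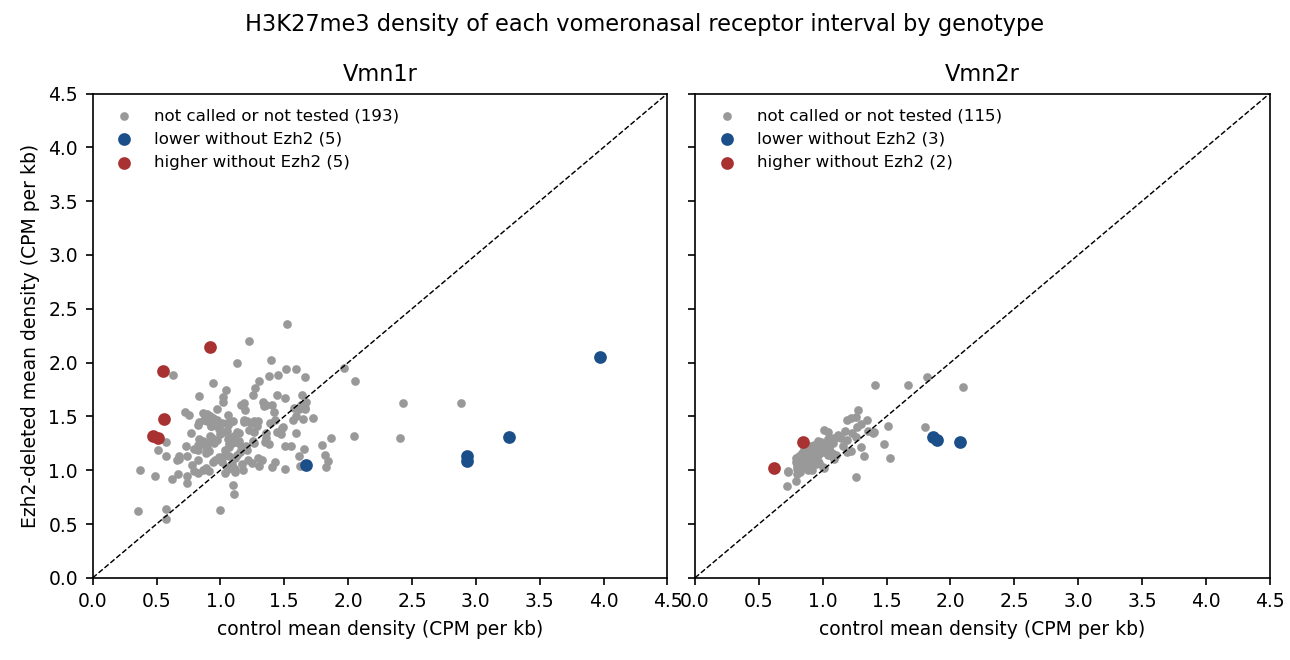
Mean H3K27me3 density of the 2 Ezh2-deleted libraries (y axis, CPM per kb) against the mean of the 2 control libraries (x axis, CPM per kb) for 203 Vmn1r (left) and 120 Vmn2r intervals (right). The dashed line marks equal densities. Members called lower (blue, 5 and 3) lie below the line and members called higher (red, 5 and 2) above it, among 308 that were not called or not tested (grey).

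The highest mean control H3K27me3 of any vomeronasal receptor was at Vmn1r234, among the last 5 genes of a Vmn1r array on chromosome 17. These genes, Vmn1r233 to Vmn1r237, span 321 kb (mm10). By control mean Vmn1r188 on chromosome 13, described below, stood above Vmn1r233 and Vmn1r236. Vmn1r234 (chr17:21228826-21229815) had 3.63 and 4.31 CPM per kb in control libraries 33 and 7 and 1.47 and 2.63 in Ezh2-deleted libraries 10 and 9, a log2 change of -0.98 (SE 0.36, edgeR adjusted p = 0.036). Vmn1r235 (chr17:21260427-21262863) had 3.02 and 3.50 against 1.14 and 1.47, a log2 change of -1.33 (SE 0.29, edgeR adjusted p = 0.0039). Vmn1r237 (chr17:21313963-21314909) had 3.23 and 2.63 against 1.61 and 0.569, a log2 change of -1.35 (SE 0.44, edgeR adjusted p = 0.022). In these 3 genes the groups did not overlap.

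Vmn1r233 (chr17:20993727-20994686) had 3.00 and 2.76 against 1.38 and 1.87 and did not pass (log2 change -0.84, edgeR adjusted p = 0.061). Vmn1r236, which was chosen after its values were seen, had 2.49 and 2.37 against 1.65 and 1.60 and did not pass either (edgeR adjusted p = 0.169). In each of the 5 both Ezh2-deleted libraries were below both control libraries, as at 31.1% of all intervals with a read. The 9 genes that precede them on the chromosome, Vmn1r224 to Vmn1r232, had control densities of 0.350 to 1.94 and Ezh2-deleted densities of 0.664 to 1.94, with 0 called by edgeR and 0 in which both Ezh2-deleted libraries were below both control libraries. Other genes in the array were low in control. Ppp2r1a, which encodes a subunit of protein phosphatase 2A and precedes Vmn1r233, had 0.432 and 0.250, and Zfp160, a zinc finger gene between Vmn1r233 and Vmn1r234, had 0.637 and 0.735. Beyond Vmn1r237, the zinc finger genes Zfp677 and Zfp54 had control means of 0.767 and 0.649. These 4 genes were thus well below the 5 receptors in control cells. Vmn1r234 and Vmn1r237 lost the call with DESeq2 (adjusted p = 0.083 and 0.065), and Vmn1r234 also without control 7 (edgeR adjusted p = 0.059). Both were still lower there.

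**Figure D3:**
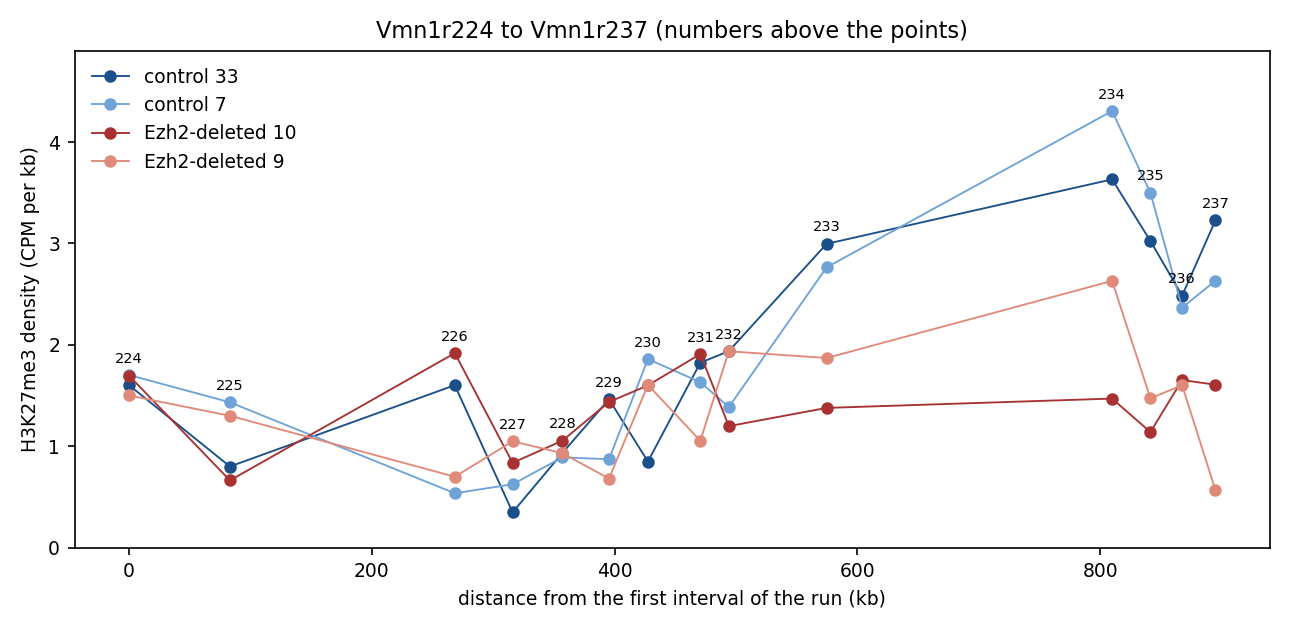
H3K27me3 density in CPM per kb (y axis) of the 14 intervals Vmn1r224 to Vmn1r237 on chromosome 17 against distance in kb from the first of them (x axis), 1 line per library. From Vmn1r233 on, both control libraries (blue) lie above both Ezh2-deleted libraries (red). Before it the 4 lines cross.

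The other Vmn1r genes called lower in H3K27me3 were single genes. Vmn1r188 (chr13:22087878-22088804) had 2.91 and 2.95 in control against 1.00 and 1.26 in Ezh2-deleted libraries, a log2 change of -1.38 (SE 0.37, edgeR adjusted p = 0.0088), the largest fall of any member. Prss16, which encodes a serine protease of the thymus and lies on the same stretch of chromosome 13, had 3.42 and 4.39 against 1.27 and 1.20 and fell too (edgeR adjusted p = 0.000419). Vmn1r4 (chr6:56924022-56958100), a 34079-base interval with 418 to 678 reads, had 1.74 and 1.60 against 0.987 and 1.10, a log2 change of -0.68 (SE 0.19, edgeR adjusted p = 0.010). Its neighbour Nt5c3, a nucleotidase gene, had a mean of 0.473 in control and 0.821 without Ezh2 and rose (edgeR adjusted p = 0.011). Fkbp9, an immunophilin gene on the same stretch of chromosome 6, went from 1.53 to 0.969 and fell (edgeR adjusted p = 0.0079).

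Chosen after its values were seen, Vmn1r55 (chr7:5146218-5147501) had 2.87 and 1.94 against 1.34 and 1.26 and just missed the threshold (edgeR adjusted p = 0.054), though it passed with TMM. The 7 genes Vmn1r33 to Vmn1r39 on chromosome 6, chosen in the same way, had control medians of 1.64 and 1.56 against 1.17 and 1.11. In 5 of the 7 the groups did not overlap, downwards in each, as at 31.1% of all intervals with a read. Of the 7, 0 were called by edgeR.

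Among Vmn2r genes, which have more reads, the called falls were smaller and came from high control densities. Control values enter the call itself, and more reads let smaller changes pass, so neither feature is a separate result. Vmn2r83 (chr10:79468943-79492154) had 2.15 and 2.00 in control against 1.16 and 1.36, a log2 change of -0.72 (SE 0.20, edgeR adjusted p = 0.010). Vmn2r82 (chr10:79356576-79397198) had 1.98 and 1.82 against 1.18 and 1.38, a log2 change of -0.57 (SE 0.17, edgeR adjusted p = 0.015). Vmn2r90 (chr17:17703941-17734167) had 1.85 and 1.88 against 1.27 and 1.35, a log2 change of -0.51 (SE 0.18, edgeR adjusted p = 0.031). All 3 ended near the typical Vmn2r density of the Ezh2-deleted libraries.

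Vmn2r83 and Vmn2r82 are neighbours, and the next gene, Vmn2r81, had 1.29 and 1.24 against 1.31 and 1.50 and was not called. Near Vmn2r90, the hyaluronan synthase gene Has1 went from a mean of 2.14 to 1.11 (edgeR adjusted p = 0.0062) and Fpr1, a formyl peptide receptor, from 1.49 to 0.938 (edgeR adjusted p = 0.042). There, Lnpep, an aminopeptidase gene, rose from 0.489 to 0.829 (edgeR adjusted p = 0.014), and Fpr3 had 1.14 and 1.13 and was not called. The call of Vmn2r90 was lost when libraries were scaled to the olfactory receptor intervals (edgeR adjusted p = 0.073). Vmn2r117 (chr17:23459675-23479597), the densest Vmn2r in control, had 2.11 and 2.10 against 1.55 and 1.99 and was not called (edgeR adjusted p = 0.325), though its groups did not overlap. Vmn2r115 had 1.83 and 1.80 against 1.75 and 1.98, with overlapping groups.

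Of the 8 members called lower, 6 stood at an end of their run of receptor genes, a position held by 101 of the 323. That feature was looked at after the calls were known and was not tested.

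The members called higher were mostly in 1 block of Vmn1r genes. The 62 Vmn1r genes of one array on chromosome 7, Vmn1r91 to Vmn1r183, were singled out after their values were seen. They had median densities of 0.973 and 0.870 in control and 1.29 and 1.37 in Ezh2-deleted libraries. Of the 57 tested, 5 (8.77%) were called higher and 0 lower, beside backgrounds of 32.2% and 20.6% over all tested intervals. Among tested intervals, 3.14% of those without an RNA read, 1.79% of others up to 1500 bases and 1.46% of Olfr were higher. The block's share of rises was above these shares, a difference that was not tested. The 141 Vmn1r genes elsewhere had 1.24 and 1.21 in control and 1.20 and 1.47 in Ezh2-deleted libraries, with 0 called higher and 5 lower. Median log2 changes were 0.49 in the block and 0.13 elsewhere. The block was thus lower than the other Vmn1r in control cells and near them in Ezh2-deleted cells.

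Vmn1r155 (chr7:22658018-22658941) had 0.584 and 0.522 in control and 1.50 and 2.33 in Ezh2-deleted libraries, from 6 reads in each control library and 21 and 24 in the Ezh2-deleted ones. Its log2 change was 1.75 (SE 0.47, edgeR adjusted p = 0.0094), the largest rise of any member, and it was the only member called higher with TMM. Vmn1r152 (chr7:22522967-22523890) had 0.973 and 0.870 against 2.15 and 2.14, a log2 change of 1.21 (SE 0.40, edgeR adjusted p = 0.022). Vmn1r129 had 0.681 and 0.435 against 1.29 and 1.65. Vmn1r116 had 0.681 and 0.348 against 1.15 and 1.46, and Vmn1r115 had 0.304 and 0.634 against 1.12 and 1.52. These 3 rose as well (edgeR adjusted p = 0.030, 0.046 and 0.039). In each of the 5 both Ezh2-deleted libraries were above both control libraries, as at 47.6% of all intervals with a read. Control counts were 3 to 10 reads.

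Vmn1r151 had 1.18 and 0.0876 in control, 12 reads and 1 read, and 1.80 and 1.96 in Ezh2-deleted libraries, and was not called (edgeR adjusted p = 0.073). The lowest controls were at Vmn1r135, with 4 reads in each control library (0.389 and 0.348) against 9 and 14 (0.645 and 1.36), which was not tested, and at Vmn1r132, with 0.412 and 0.301 against 0.606 and 0.635 (edgeR adjusted p = 0.129). Calls in this block were lost under several settings: with TMM, Vmn1r152, Vmn1r129, Vmn1r116 and Vmn1r115 had edgeR adjusted p of 0.0568, 0.0625, 0.0897 and 0.0765. DESeq2 called 0 members higher (10099 intervals of the genome and 12 members had an unadjusted p under 0.05 in it).

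These are genes with close copies. Over the 179 Vmn1r windows of 300 bases, 59 were at least 95% identical to the window of another member by edit distance, and 49 of those lay in the chromosome 7 block. Across both families 35 members had a window with the same letters as another, among them the pairs Vmn1r155 with Vmn1r107, Vmn1r152 with Vmn1r104 and Vmn1r135 with Vmn1r163. How the counting divided reads between such copies is not given in the sources used here, so the value of a single copy is uncertain. Sums over copies leave out any reads dropped for mapping to several places. The 49 genes of the block with a close copy had summed reads over summed length of 0.892 and 0.733 CPM per kb in control and 1.16 and 1.26 in Ezh2-deleted libraries. Of the 44 of these that were tested, 4 were called higher (Vmn1r155, Vmn1r152, Vmn1r129 and Vmn1r116) and 0 lower.

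The 10 close-copy genes elsewhere had such densities of 1.64 and 1.53 in control and 1.17 and 1.23 in Ezh2-deleted libraries, the opposite order. Vmn1r188, called lower, was among them, with 95% identity to its nearest match. The windows of Vmn1r234, Vmn1r235 and Vmn1r237 were no more than 53.0% identical to any other. Close copies among the Vmn2r (35 of 114 windows) had medians of 1.04 and 0.934 against 1.08 and 1.33, near those of the other Vmn2r at 1.01 and 0.950 against 1.08 and 1.24.

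**Figure D4:**
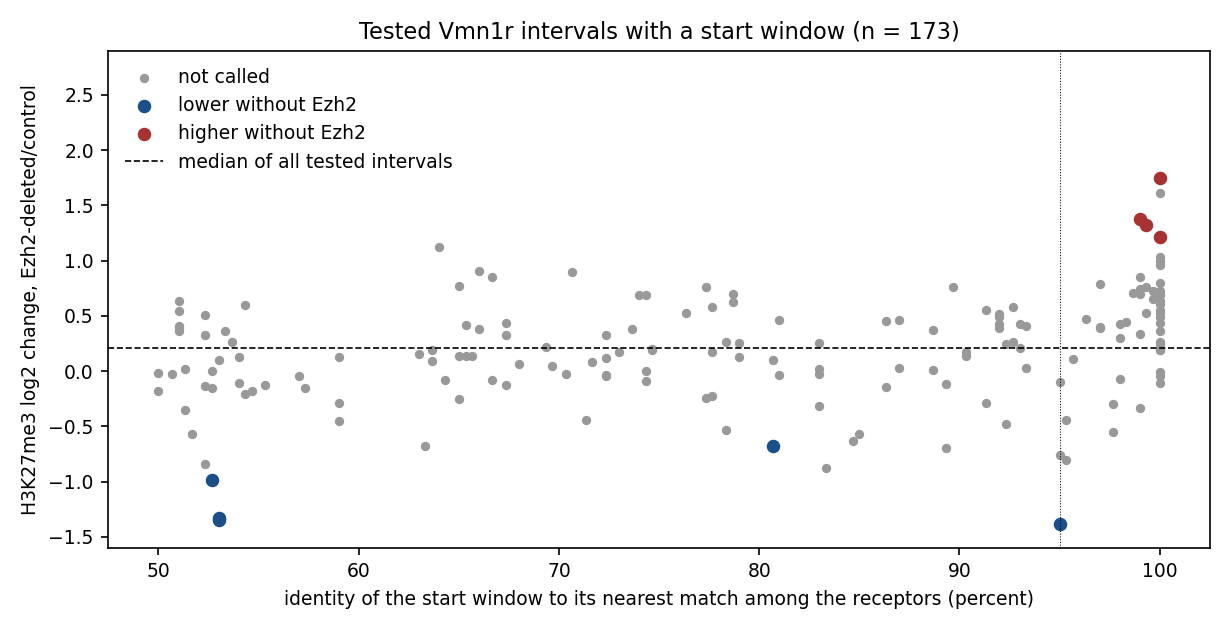
H3K27me3 log2 change, Ezh2-deleted over control (y axis), of the 173 tested Vmn1r intervals with an entry in the promoter table, against the identity in percent of the 300-base start window to its nearest match among the receptors (x axis). The dashed line is the median of all tested intervals (0.21) and the dotted line marks 95%. The 4 rises that passed the test (red) lie at 99.0% or more, and 3 of the 5 falls (blue) at 53.0% or less.

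The Vmn2r called higher were low in control, a value that enters the call itself. Vmn2r84 (chr10:130385316-130394241) had 0.695 and 0.541 in control, the lowest mean of the family, and 0.920 and 1.13 in Ezh2-deleted libraries, a log2 change of 0.73 (SE 0.27, edgeR adjusted p = 0.042). Vmn2r48 (chr7:9927624-9953585) had 0.893 and 0.805 against 1.24 and 1.28, a log2 change of 0.57 (SE 0.21, edgeR adjusted p = 0.036). Both calls were lost with TMM (edgeR adjusted p = 0.133 and 0.190).

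Vmn2r84 differed from its neighbours. Vmn2r85, Vmn2r86 and Vmn2r87, named after their values were seen, had control densities of 1.12 to 1.83 and Ezh2-deleted densities of 0.822 to 1.61. In all 3 both Ezh2-deleted libraries were below both control libraries, as at 31.1% of all intervals with a read. They were not called with library totals (edgeR adjusted p = 0.178, 0.138 and 0.162) and were called lower with TMM. On the other side of Vmn2r84, Tespa1, which encodes a thymocyte protein of T cell receptor signalling, went from a mean of 0.534 to 0.914 and rose (edgeR adjusted p = 0.013), while the neuronal factor gene Neurod4 on that side went from 2.07 to 1.30 and fell (edgeR adjusted p = 0.023). Among other Vmn2r with low control density, Vmn2r121 on the X chromosome had 0.724 and 0.732 against 1.05 and 0.922, and Vmn2r46 had 0.824 and 0.611 against 0.777 and 0.924, and neither was called. Vmn2r52, with the next largest rise of the family, had 0.790 and 0.789 against 0.961 and 1.26 (edgeR adjusted p = 0.109).

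RNA from these genes was scarce in every culture and genotype. In bulk cultures fewer cells of a type and less RNA per cell cannot be told apart. All 323 had a row in the RNA tables, and 275 had no read in any of the 12 libraries, where a count of 0 allows up to 3 counts per library, counting error only. The 48 with a read were 8 Vmn1r and 40 Vmn2r, and together they had 1979 reads, or 6.51 CPM. Only 5 passed the count filter and were tested, Vmn1r58, Vmn2r96, Vmn2r29, Vmn2r84 and Vmn2r97, and they held 85.8% of those reads. Without strand information in the sources used here, reads from overlapping antisense transcripts cannot be told apart. Vmn2r36, Vmn2r40, Vmn2r41 and Vmn2r48 had the same counts in all 12 libraries, with 1 read in 1 library and 2 in another, and such copies cannot be told apart at this depth.

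Deletion of Ezh2 left the tested receptors' RNA uncalled. Of the 5, 0 were called between genotypes in Th0 (background 12%) and 0 in iTreg (background 16.7%) by edgeR's quasi-likelihood test of 12845 genes with TMM scaling. At an unadjusted p under 0.05 there were 0 in either culture, and DESeq2 also called 0. The interaction of genotype and culture called 0 of 5 (background 4.49%).

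Vmn1r58 had 46, 33 and 51 reads in Th0 control libraries 173, 176 and 177 and, without Ezh2, 48 in Ezh2KO.165, 56 in Ezh2KO.174 and 44 in Ezh2KO.175, a log2 change of 0.09 (SE 0.38). In iTreg it had 87, 93 and 158 reads in control libraries 154, 155 and 177 and, without Ezh2, 92 in Ezh2KO.150, 67 in Ezh2KO.153 and 154 in Ezh2KO.165, a log2 change of 0.03 (SE 0.36). Its groups overlapped between genotypes in both cultures, and every iTreg library was above every Th0 library. Its H3K27me3 in Th0 was 1.08 and 1.06 in control and 0.995 and 1.43 in Ezh2-deleted libraries, near the family median.

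Vmn2r96 had 7, 8 and 10 reads in Th0 control and 11, 9 and 5 in Th0 Ezh2-deleted libraries, in the order given above. In iTreg it had 37, 51 and 117 in control and 25, 9 and 84 in Ezh2-deleted libraries, a log2 change of -0.64 (SE 0.70). Vmn2r97, also on chromosome 17, had 2, 1 and 4 against 1, 1 and 2 in Th0, and 10, 17 and 48 against 4, 5 and 22 in iTreg (log2 change -1.12, SE 0.74). For both genes iTreg control 177 and iTreg Ezh2KO.165 held the highest counts of their groups. These are the libraries with the high myeloid marker sums, 26.2 and 11.4 CPM, and the part of those cells in the receptor counts was not tested.

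With iTreg library Ezh2KO.165 left out, Vmn2r96 and Vmn2r97 passed the test as lower without Ezh2, with log2 changes of -1.93 and -2.36 (edgeR adjusted p = 0.024 and 0.027), where 44.2% of the 13025 tested genes were called. With Ezh2KO.165 and 177 both left out, a fit added after the data were seen, Vmn2r96 passed at -1.28 (edgeR adjusted p = 0.0185) and Vmn2r97 was not tested, where 57.1% of all were called. The Ezh2-deleted libraries left in these fits are Ezh2KO.150 and Ezh2KO.153, those with the high CD8 and NK cell marker sums, whose part in the result was not tested. The genotype difference at these genes therefore rests on which iTreg libraries are counted.

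Vmn2r29 had 11, 10 and 12 against 4, 11 and 15 reads in Th0 and 25, 21 and 10 against 16, 3 and 8 in iTreg. Vmn2r84 was called higher in H3K27me3 in Th0 on library totals, but not with TMM or DESeq2. In RNA it had 5, 5 and 6 against 5, 2 and 8 reads in Th0 (log2 change -0.19, SE 0.67). In iTreg it had 13, 26 and 8 against 29, 17 and 8. Neither gene passed in either culture, and groups overlapped in all 4 comparisons.

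Receptor RNA was higher in iTreg than in Th0 cultures, a comparison between cultures that also differ in the day given in their titles. Summed over all members it was 3.16 ± 0.267 CPM in Th0 control and 3.51 ± 0.538 in Th0 Ezh2-deleted libraries, and 11 ± 3.65 in iTreg control and 9.04 ± 4.17 in iTreg Ezh2-deleted libraries (SD, n = 3 each). The lowest iTreg library, at 5.19 CPM, exceeded the highest Th0 library, at 4.12. This comparison was chosen after its values were seen. Numbers 177 and Ezh2KO.165 recur in both cultures, 1 per genotype, which is too few for a paired fit. The myeloid genes summed to 0.306 to 1.34 CPM in Th0 libraries and 2.27 to 26.2 in iTreg libraries, and their part in the difference was not tested.

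In control cells 3 of the 5 were higher in iTreg by edgeR, where 19.9% of all tested genes were: Vmn2r97 (log2 change 3.34, SE 0.89, adjusted p = 0.020), Vmn2r96 (3.00, SE 0.80, adjusted p = 0.020) and Vmn1r58 (1.35, SE 0.37, adjusted p = 0.023). In Ezh2-deleted cells 3 of 5 were higher, where 16.6% of all were, by edgeR: Vmn1r58 (1.29, SE 0.37, adjusted p = 0.033), Vmn2r84 (2.00, SE 0.60, adjusted p = 0.038) and Vmn2r96 (2.44, SE 0.80, adjusted p = 0.049). Single libraries decide these calls. Without iTreg control 177, all 3 calls in control cells were lost (edgeR adjusted p = 0.072 to 0.086), and without iTreg Ezh2KO.165, those of Vmn1r58 and Vmn2r96 in Ezh2-deleted cells (edgeR adjusted p = 0.071 and 0.205). Leaving out a single Th0 library also cost some of these calls. With 177 and Ezh2KO.165 both left out, Vmn1r58 was higher in iTreg in control (1.02, edgeR adjusted p = 0.00134) and in Ezh2-deleted cells (0.84, edgeR adjusted p = 0.00637). Vmn2r84 was higher in both (1.82, edgeR adjusted p = 0.00569, and 2.33, edgeR adjusted p = 0.00119). Vmn2r96 was higher in control (2.36, edgeR adjusted p = 0.000187) and was not called in Ezh2-deleted cells (1.17, edgeR adjusted p = 0.0515). In that fit 35.1% of all tested genes were higher in iTreg in control and 28.8% in Ezh2-deleted cells.

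**Figure D5:**
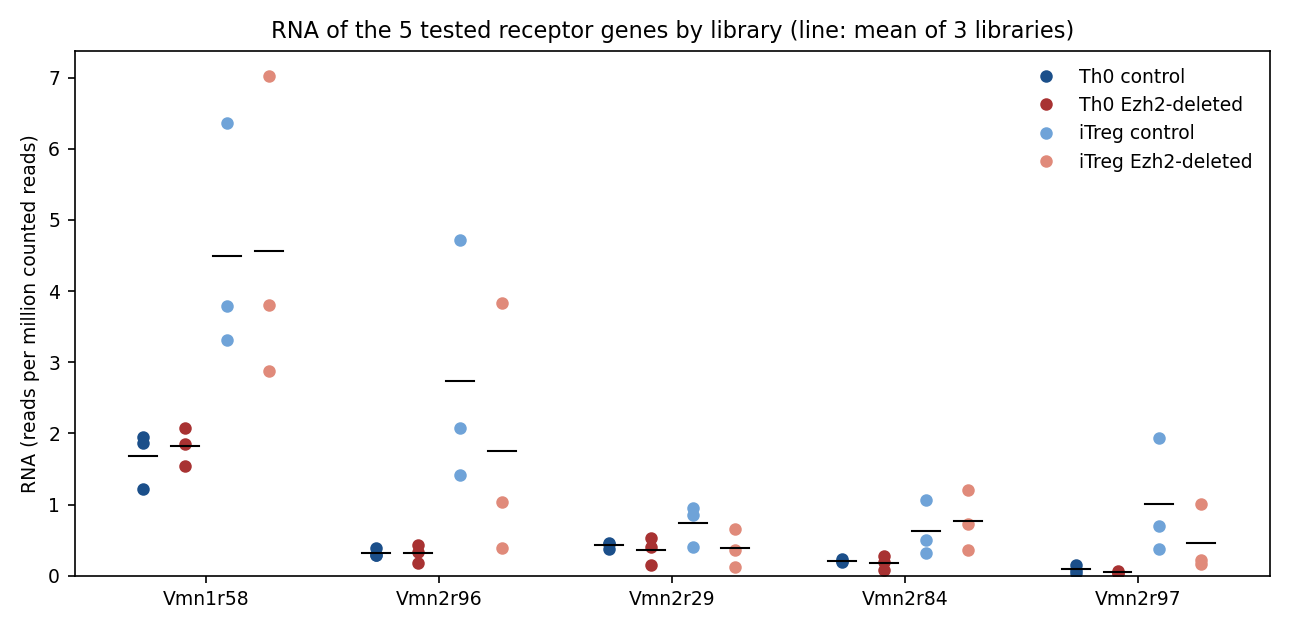
RNA in CPM (y axis) of the 5 receptor genes that passed the count filter (x axis), with 1 point per library and a line at the mean of the 3 libraries of each group. Every iTreg library of Vmn1r58 lies above its Th0 libraries, the lowest iTreg library of Vmn2r96 lies within its Th0 range, and the genotypes overlap within each culture for both.

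Among the lists of related genes, transcription factors of vomeronasal neurons had the largest share of falls in H3K27me3. Of 15 tested transcription factors of vomeronasal neurons, 11 were lower and 2 higher without Ezh2, with a median log2 change of -1.27. Neurog1, a proneural factor, had 6.34 and 9.70 in control against 1.24 and 1.62 in Ezh2-deleted libraries. Lhx2, a LIM homeodomain factor, had 6.27 and 7.87 against 1.43 and 1.76, and Tfap2e, a factor of V2R neurons, had 3.63 and 4.13 against 1.32 and 1.41. Bcl11b, which T cells also use, was 1 of the 2 that were higher (Ldb1 the other), with 0.405 and 0.249 against 0.877 and 0.714.

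Signalling genes were split, with 6 higher and 6 lower of 19 tested and a median log2 change of 0.04. Those lower included Kirrel2, an adhesion molecule of sensory axons, with 4.86 and 5.18 against 1.12 and 1.60, and Gng8, a G protein gamma subunit of vomeronasal neurons, with 2.86 and 2.51 against 1.02 and 1.01. Those higher included, chosen after their values were seen, Trpc2, with 0.582 and 0.477 against 1.02 and 0.814, and Gnai2, with 0.386 and 0.224 against 0.802 and 0.754. Of 9 H2-Mv genes, class I-like genes of V2R neurons, 2 were lower (H2-M10.1 and H2-M10.3) and 0 higher. Of 5 formyl peptide receptors 1 was lower (Fpr1), while Fpr3, Fpr-rs3, Fpr-rs4 and Fpr-rs6 were not called. Of 15 trace amine-associated receptors 1 was lower (Taar8b), and of 3 type 1 taste receptors 0. None of these lists had a gene called higher, and they are not limited to receptors of the vomeronasal organ. Backgrounds are those given above, 20.6% lower and 32.2% higher.

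In RNA, 9 signalling genes were tested, with 1 higher (Adcy3, an adenylyl cyclase) and 0 lower in Th0, and 0 higher and 2 lower (Gng2 and Gnai2, both G protein subunits) in iTreg. Over all tested genes 8.74% were higher and 3.22% lower in Th0, and 9.45% and 7.26% in iTreg. Of 6 tested transcription factors, 2 were higher in Th0 (Lhx2 and Ebf1) and 1 lower (Atf5), and 0 were called in iTreg. Lhx2 RNA was 1.12 ± 0.144 CPM in Th0 control and 6.18 ± 3.42 in Th0 Ezh2-deleted libraries (SD, n = 3 each). Ebf1 is also a B cell gene, and the 8 B cell markers, of which it is 1, summed to 30.1 to 54.9 CPM in Th0 control and 94.6 to 219 in Th0 Ezh2-deleted libraries. Their part in this result was not tested. Of 1 tested type 1 taste receptor 0 was called, and no gene of the remaining lists passed the filter.

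Of 7 genes of mature sensory neurons, 5 were at or near the floor: over the 12 libraries Cnga2 had 0 reads, Stoml3 2, Gng13 8, Gng8 19 and Omp, the olfactory marker protein, 57. Trpc2 (21.0 to 27.0 CPM) and Adcy3 (16.7 to 32.7 CPM) were present in every library.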

How the data were processed

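H3K27me3 ChIP-seq (4 Th0 libraries) and RNA-seq (12 libraries) were deposited by the authors as raw read counts per gene. Per the submitters' processing notes, RNA reads were trimmed with Trimmomatic 0.30, aligned to mm10 with TopHat2 2.0.6 and counted with featureCounts 1.4.2, and ChIP reads were aligned with Bowtie2 2.1.0. How reads that map to several copies were counted, and the strand setting, are not given in the sources used here. ChIP counts cover the whole gene interval. Density is CPM per kb of interval.

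Counts were tested in R 4.3.3 with edgeR 4.0.16 (quasi-likelihood, filterByExpr with a minimum count of 10, Benjamini-Hochberg over all features tested, threshold 0.05), on library totals for ChIP and with TMM over 12 libraries in 4 groups for RNA. The scripts were tested on simulated data. DESeq2 1.42.0 was an alternative, and where it gave no adjusted p none was counted. Intervals and floors cover counting error only.

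The vomeronasal receptor genes, the gene lists and the tests were chosen with earlier results of these data known. Named members were those with the highest and lowest control density, the calls with the smallest p, the largest changes and the most RNA reads. Others are said to be chosen after their values were seen. Proteins were not analysed here.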

Additional observations from a re-analysis of the deposited data

How the results depend on the processing

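Genotype calls of receptor intervals (15, 8 lower and 7 higher) moved with scaling and depth. TMM gave 16 lower and 1 higher, DESeq2 size factors in edgeR 13 and 2, DESeq2 itself 7 in all with 0 higher, and a minimum count of 20 gave 3 higher. Over all tested intervals the share called was 52.3% with TMM, 51.4% with DESeq2 size factors and 42.5% with DESeq2. It was 57.0% with a minimum count of 20. DESeq2 called 3795 intervals higher, against 6570 in the main fit. Leaving out 1 ChIP library at a time gave 0 to 35 members (0 to 10 lower, 0 to 27 higher) and 0 to 12648 intervals (0 to 5091 lower, 0 to 7557 higher). The counts of 0 came without Ezh2-deleted 10 or 9, and the count of 35 without control 33. In every setting that kept both Ezh2-deleted libraries, Vmn1r235, Vmn1r188, Vmn1r4, Vmn2r83 and Vmn2r82 were called lower. Vmn1r155 was called higher with TMM, and DESeq2 gave it no adjusted p. The members' median log2 change of 0.25 became 0.0158 with TMM, 0.0570 with DESeq2 size factors and 0.0562 with DESeq2. The control density was 1.21 for Vmn1r and 1.06 for Vmn2r on TMM library sizes, where the medians of the genotypes overlapped in both families. As summed reads over summed length, the control density was 1.08 for Vmn2r. RNA calls in iTreg ranged from 0 to 2 when 1 library was left out (2 without Ezh2KO.165), and 1 was called without Ezh2KO.165 and 177. For single members, 21 of 270 comparisons with another setting lost a call and 6 gained one, and 69 and 10 of 356 did when 1 library was left out. No called value of a named member changed direction. Uncalled log2 changes near 0 did, such as those in H3K27me3: Vmn2r115 ran from -0.19 to 0.13, Vmn1r58 from -0.10 to 0.43 and Vmn2r97 from -0.10 to 0.25. Causes were not tested. At 13 to 19 reads per library, a single Vmn1r interval has little precision. No paired analysis was possible because the genotypes share no replicate numbers. Between cultures, 177 and Ezh2KO.165 recur, 1 number per genotype, and a block on them leaves no residual degrees of freedom.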
